A study of Arabidopsis thaliana with 7 samples.

Results

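The transcripts described here gave low signals on every early array of Arabidopsis pollen development and high signals on every late one. They are the 67 probe sets, of 22746 without controls on the ATH1 array, with a deposited signal below 40 on all 4 arrays of uninucleate microspores and bicellular pollen and of 500 or more on all 3 arrays of tricellular and mature pollen. The signals of these same 7 arrays chose the 67, so the step from early to late is described below and not tested. Of the 67, 47 were listed with 1 gene each, 1 was listed with 2 genes (AT1G51250 and AT1G51240) and 19 carry no gene name here.

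The study followed the male gametophyte of Arabidopsis thaliana ecotype Ler-0 (stock NW20, no genetic modification), grown on compost in a growth room at 21 °C under 16 h of light. Spores were pooled from many plants, and each stage was isolated by density centrifugation or, for mature grains, from open flowers. The uninucleate microspore (UNM), bicellular (BCP) and tricellular (TCP) stages had 2 arrays each, from independently grown plants, and the mature pollen grain (MPG) stage had 1 array here. All groups shared genotype and growth conditions and differed in stage. Mature pollen also differed from the other stages in the way it was isolated. Stage and isolation therefore cannot be told apart between TCP and MPG. The study's own microscopy found some tricellular grains among the bicellular isolate and some bicellular grains among the tricellular one. In such isolates, fewer cells of a type and less RNA per cell cannot be told apart.

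Pollen develops from a haploid microspore, which divides asymmetrically into a large vegetative cell and a small generative cell. In Arabidopsis the generative cell divides again inside the grain to give the pair of sperm, and the vegetative cell later grows the pollen tube. Pollen tubes extend at the tip by delivering new membrane and wall material there, and transcripts for wall remodeling, secretion and signaling enzymes are known to accumulate in the vegetative cell before the grain is shed.

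The deposited signals carry no detection calls, so silent here means a signal below 40 and not the absence of a transcript. Probe sets also differ in how brightly they report a transcript, so levels are compared between arrays and not between genes. The deposited signals already shared a trimmed mean, so their overall scale was set by processing. The median signal was 34.0 to 40.2 on the early arrays and 28.3 to 31.4 on the late ones. Between 8986 and 11411 probe sets were at 40 or more. The limit of 40 thus lay near the medians of UNM 2 and BCP 2, at 40.2 and 40.1. The ratio of 3′ to 5′ probe sets for GAPDH, a measure of RNA integrity and labeling, was 2.76 to 3.19 on the log2 scale for every second replicate and 0.63 to 1.21 for every first one, MPG included. The same ratio for actin was 1.6 to 1.79 on the early arrays and -2.25 to -1.85 on the late ones, so it moved with the early-to-late step of the 67, and its part there was not tested. Among marker lists, 5 of the 12 listed late pollen markers could be matched to a probe set, and all 5 were abundant late. Their summed signals were 2057.3 to 5127.3 on the early arrays and 17359.3 to 30494.2 on the late arrays. AT5G45880 alone gave 1989.0 to 4913.7 of the early sums. The single sperm marker measured, MGH3, had 103.7 to 354.1 early and 2353.6 to 2875.8 late. The 3 tapetum markers summed to 66.3 and 83.5 in UNM and to 18.4 in MPG, the 2 meiocyte markers to between 35.7 and 91.3 over all arrays and the 2 green tissue markers to between 112.9 and 244.5. Of these markers only ANX1 and ANX2 belong to the 67, and any part of other cell types in the results was not tested.

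Across the 67, the signal stayed low through both early stages, stepped up at the tricellular stage and was highest in the mature grain for most. The lowest, median and highest signals were 1.1, 10.0 and 36.6 on UNM 1 and 0.8, 8.4 and 39.5 on UNM 2. They were 1.9, 26.6 and 39.5 on BCP 1 and 0.7, 24.6 and 39.3 on BCP 2. On TCP 1 they were 510.5, 840.2 and 3132.6, on TCP 2 525.8, 898.9 and 2429.8, and on MPG 552.4, 2248.4 and 6694.7. The TCP arrays thus had similar medians and the MPG array a higher one.

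**Figure D1:**
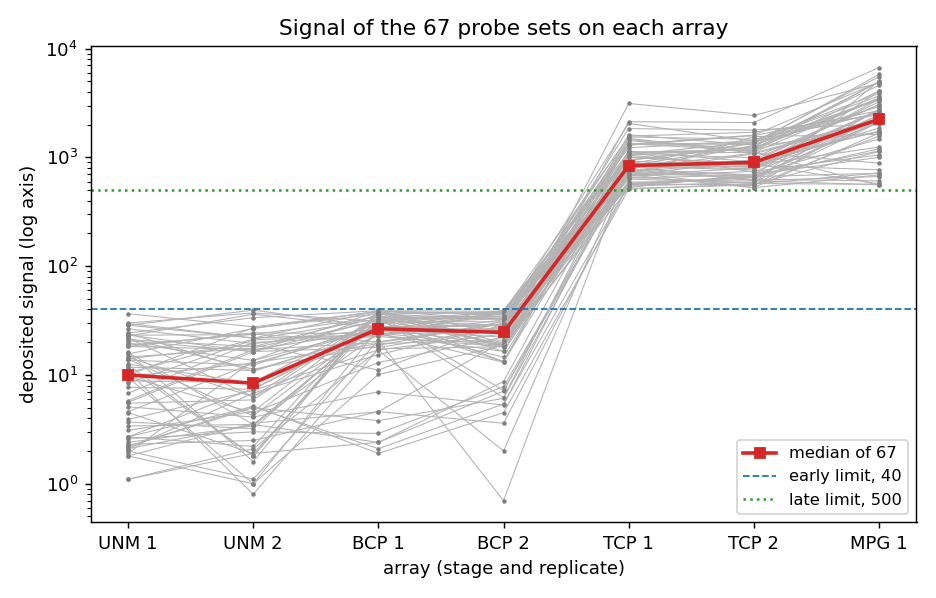
Deposited signal (log axis) of the 67 probe sets on each of the 7 arrays, with 1 gray line per probe set, the median in red and the limits of 40 and 500 that chose them as dashed and dotted lines. The median stays under 40 on the 4 early arrays, reaches 840.2 and 898.9 on the TCP arrays and 2248.4 on the MPG array.

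At these low signals the size of the early-to-late step is mostly a lower bound. With early signals under 20 raised to 20, the ratio of TCP to BCP ran from 17.6 to 105 with a median of 36.0, and 37 of the 67 ratios are bounds. The ratio of MPG to UNM ran from 16.7 to 337 with a median of 108, and 59 of them are bounds. All 4 early arrays were under 20 for 11 of the 67 and under 10 for 8, which included the carboxypeptidase-like gene scpl38, the S-acyltransferase gene AT5G05070, AT3G54240, AT3G01630 and AT2G28440. As a share of all summed signal, the 67 held 0.0246% and 0.0235% in UNM, 0.0528% and 0.0465% in BCP, 1.79% and 1.75% in TCP and 3.92% in MPG. The rule fixes the direction of these shares from early to late, but not the larger share in MPG than in either TCP array.

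The 67 were 6.17% of the 1086 probe sets at 500 or more on all late arrays and 0.679% of the 9874 below 40 on all early arrays. Most of their TCP signals repeated closely. The ratio of the higher to the lower TCP array had a median of 1.16 and a range of 1.00 to 2.28, against a median of 1.14 for the 1019 other abundant late probe sets. The TCP arrays lay over 1.5-fold apart for 5 of the 67, a larger share than 34 of the 1019 others (3.34%). TCP 2 was the higher array for 35 of the 67. The largest gap was that of AT5G27870, a pectin methylesterase family gene, with 680.3 on TCP 1 and 1554.0 on TCP 2.

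The rule set a lower limit of 500 on both late stages. It did not use the difference between them directly, but it bounds that difference. A probe set under 500 in MPG is left out, which limits falls, and 38 of the 67 had a mean TCP signal under 1000. The early signals, held under 40, also enter the spread of the fit. The full set tested has neither limit, and the other abundant late probe sets share only that of 500. The difference was tested with limma over the 14364 probe sets that reached 40 on at least 1 array. Between TCP and MPG, 35 of the 67 rose (Benjamini-Hochberg adjusted p under 0.05), 0 fell and 32 did not pass, against rises in 5.02% and falls in 7.43% of all probe sets tested and in 12.2% and 8.64% of the other abundant late ones. At an unadjusted p under 0.05, 51 passed. The median change over the 67 was 1.27 on the log2 scale, or 2.42-fold, with a range of -1.23 to 3.05, against a median of 0.28 over the other abundant late probe sets and 0.00 over all tested. In MPG the signal exceeded that of both TCP arrays for 59 of the 67, against 42.2% of all probe sets and 58.2% of the other abundant late ones, and was below both for 5, against 33.8% and 30.4%. Those that rose did so 1.87-fold to 8.30-fold, with a median of 3.28-fold and adjusted p of 0.0094 to 0.048.

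These calls rest on few arrays, with 1 array of MPG and a spread taken partly from early signals that the rule holds under 40. The number that rose was 0 without TCP 1, 0 without TCP 2, 10 without UNM 1, 14 without UNM 2 and 27 without either BCP array, and it was 0 when only the 3 TCP and MPG arrays were fitted, whereas the median change stayed between 1.27 and 1.3 in all of these. It was 22 under quantile normalization, 23 with a floor of 10, 47 with a floor of 40 and 0 under scaling from spiked controls. Quantile normalization and the floor of 10 both lost the calls of AT3G17060, AT1G23350, cdc2cAt, PIPK11, ANX1, AT3G54240 and AT3G01630, while the former also lost AT2G24370 and AT3G24530 and the latter AT2G40990 and AT2G15650. Early signals raised to the floor of 20 lose their own spread in the fit. The 67 had a median of 2 such arrays against 0 for the other abundant late probe sets, with median standard errors of 0.259 and 0.268. Within the 67 the median was 3 such arrays for those that rose and 2 for those that did not pass. The part of the floor in the calls was not tested. The limit of 500 in MPG also leaves less room for falls than for rises where the TCP signal is near it. Among the 29 with a mean TCP signal of 1000 or more, the median change was 1.41, against 0.24 for 679 other abundant late probe sets above the same level.

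Set beside the other late transcripts by their highest early signal, those that had been silent had the highest median change toward the mature grain. The median change from TCP to MPG was 1.27 for the 67, 0.87 for 175 probe sets with a highest early signal of 40 to 100, 0.53 for 430 at 100 to 500 and -0.18 for 414 at 500 or more. The share that rose was 52.2%, 26.9%, 16.0% and 1.93% in these groups, and the share that fell was 0%, 1.14%, 4.42% and 16.2%. The differences between the groups were not tested, and the same arrays gave the early signals and the spread behind the calls.

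**Figure D2:**
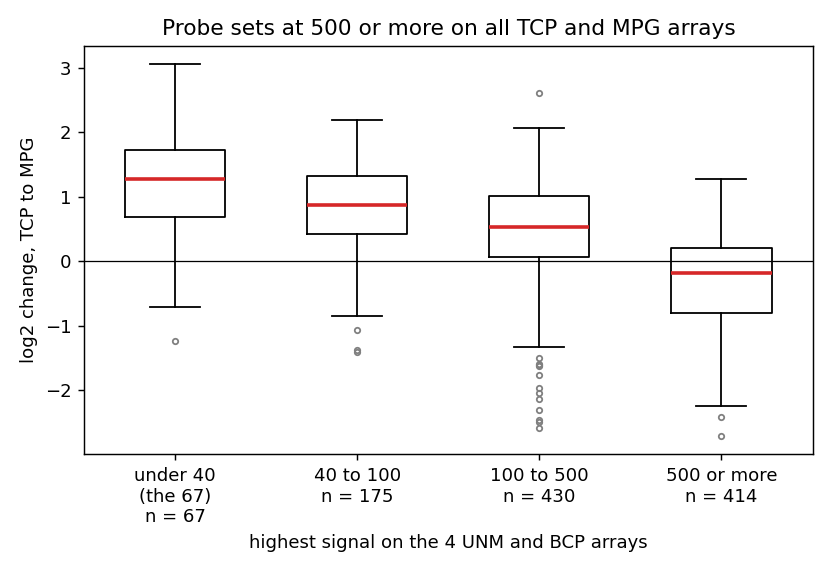
Change from TCP to MPG (log2 of the deposited signals after rescaling) for the 1086 probe sets at 500 or more on all late arrays, grouped by their highest early signal. Boxes span the quartiles with the median in red, whiskers reach the last value within 1.5 box lengths and circles are values beyond. The medians fall from 1.27 in the leftmost group, the 67, to -0.18 in the rightmost.

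**Figure D3:**
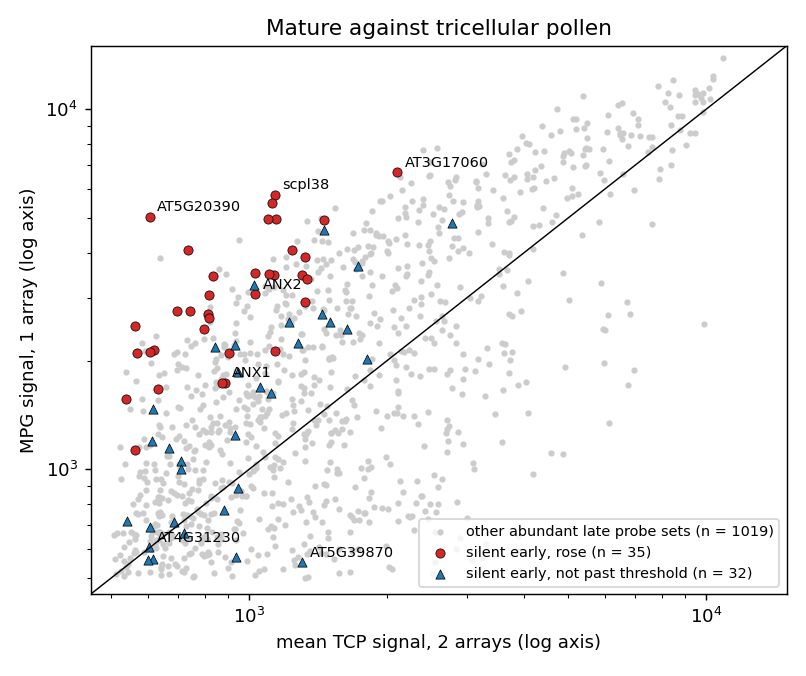
Signal on the MPG array against the mean of the TCP arrays (both log axes) for the 1019 other abundant late probe sets in gray, the 35 of the 67 that rose as red circles and the 32 that did not pass as blue triangles, with the line of equal signal. The MPG array lies above both TCP arrays for 59 of the 67, and AT5G39870 lies farthest below the line.

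Among the 47 named genes, 12 encode enzymes and secreted proteins of the wall and cell surface by their family, and 11 encode kinases and other signaling proteins. These groups were drawn up from family knowledge after the values were seen. From TCP to MPG, 7 of the 12 wall and secretion genes rose and 5 did not pass, with a median change of 1.64, where 52.2% of the 67 and 5.02% of all probe sets tested rose. Of the 11 signaling genes, 8 rose and 3 did not pass, with a median of 1.57. Of the other 24 named genes 9 rose and 15 did not, with a median of 1.04, and of the 20 probe sets without a single gene name 11 rose and 9 did not, with a median of 1.16.

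**Figure D4:**
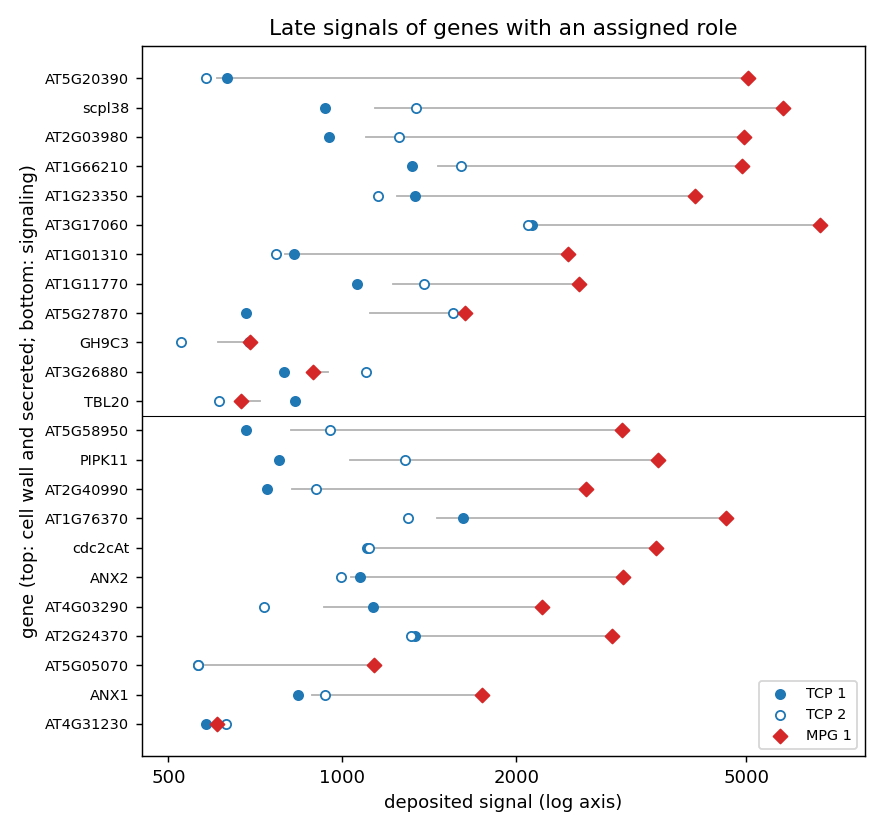
Deposited signal (log axis) of the 12 wall and secretion genes (top) and 11 signaling genes (bottom) on TCP 1 (filled circle), TCP 2 (open circle) and MPG 1 (red diamond), with a gray line from the TCP mean to MPG. The MPG signal runs from 667.2 to 6694.7 in the upper group and from 607.4 to 4607.8 in the lower one.

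The pectin-related genes among the 67 were higher in MPG than on either TCP array, and 2 of the 3 rose. Pectin methylesterases remove methyl groups from pectin, the main polymer of the pollen tube tip wall, and proteinaceous inhibitors hold them in check. AT3G17060, a pectin methylesterase family gene on chromosome 3 (5816672 to 5818498, TAIR10.1), had 2.7 and 2.2 in UNM, 37.9 and 18.3 in BCP, 2130.3 and 2090.6 in TCP and 6694.7 in MPG. Its MPG signal was at least 337-fold above UNM, and it rose by 1.67 (SE 0.39) on the log2 scale from TCP to MPG (limma adjusted p = 0.048), although with the replicate block the adjusted p was 0.0504. AT1G23350, of the invertase and pectin methylesterase inhibitor family, had 3.1 and 4.6 in UNM, 36.0 and 13.3 in BCP, 1336.3 and 1150.4 in TCP and 4074.7 in MPG, and rose by 1.72 (SE 0.37, limma adjusted p = 0.040). AT5G27870, the other methylesterase, had 16.1 and 3.5, then 30.1 and 36.1, then the uneven TCP pair given above and 1626.6 in MPG. Its MPG signal barely exceeded that of TCP 2, and its change of 0.66 (SE 0.48) did not pass.

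The enzymes for other wall polymers and for secreted proteins and lipids included the largest rise of all. AT5G20390, a glycosyl hydrolase family gene on chromosome 5, had 14.1 and 19.0 in UNM, 11.1 and 29.7 in BCP, 632.3 and 580.9 in TCP and 5033.9 in MPG. The TCP arrays were close and the MPG array far above both, a rise of 3.05 (SE 0.29, limma adjusted p = 0.0094) or 8.30-fold. The serine carboxypeptidase-like gene scpl38 (AT2G05850) was under 10 on every early array, with 5.1 and 4.1 in UNM and 7.0 and 5.3 in BCP, followed by 932.6 and 1342.5 in TCP and 5790.9 in MPG. It rose 5.17-fold (log2 change 2.37, SE 0.27, limma adjusted p = 0.011).

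Similar rises were seen for a protease and a lipase gene. AT1G66210, a subtilase family gene for a secreted type of protease, had 30.0 and 37.2 in UNM, 31.1 and 30.7 in BCP, 1321.5 and 1602.5 in TCP and 4917.8 in MPG, a rise of 3.38-fold (limma adjusted p = 0.016). AT2G03980, a GDSL-type lipase family gene, had 29.7 and 21.9 in UNM, 23.4 and 37.2 in BCP, 948.4 and 1250.8 in TCP and 4955.3 in MPG, a rise of 4.55-fold (limma adjusted p = 0.024). AT1G01310, of the cysteine-rich CAP family of secreted proteins, was under 3 on 3 of the 4 early arrays and at 16.9 on BCP 1. Its late signals were 824.0 and 767.2 in TCP and 2453.5 in MPG, 3.08-fold higher (limma adjusted p = 0.012).

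The remaining genes of this group did not pass between TCP and MPG. GH9C3, a family 9 glycosyl hydrolase related to endoglucanases that act on cellulose, had 5.5 and 5.9 in UNM, 34.0 and 34.6 in BCP, 690.6 and 525.8 in TCP and 691.9 in MPG. Its MPG signal was level with TCP 1, and the change of 0.20 (SE 0.24) did not pass. TBL20, of a family that acetylates wall polysaccharides, had 829.5 and 611.1 in TCP and 667.2 in MPG, and AT3G26880, of the small secreted self-incompatibility S1 family, 791.5 and 1097.5 in TCP and 887.9 in MPG. Both MPG signals lay between the TCP arrays, and the signs of these small changes, -0.10 and -0.07, turned without 1 of the TCP arrays, to 0.13 for TBL20 without TCP 1 and 0.17 for AT3G26880 without TCP 2, and under scaling from spiked controls. AT1G11770, of the berberine bridge enzyme-like family, had 1058.5 and 1386.8 in TCP and 2570.1 in MPG, higher than both, a change of 1.08 with a limma adjusted p of 0.087, or 0.0225 with the replicate block.

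The signaling genes included the receptor kinase pair ANX1 and ANX2, which act at the surface of the pollen tube and keep it from bursting before it reaches the ovule. ANX1 (AT3G04690, chromosome 3, 1273057 to 1276945) had 2.0 and 1.1 in UNM, 20.8 and 0.7 in BCP, 837.4 and 931.7 in TCP and 1741.7 in MPG. ANX2 (AT5G28680, chromosome 5, 10719127 to 10722361) had 11.8 and 11 in UNM, 24.3 and 18.5 in BCP, 1070.7 and 995.3 in TCP and 3060.7 in MPG. Both rose, ANX1 by 0.98 (SE 0.20, limma adjusted p = 0.036) and ANX2 by 1.57 (SE 0.22, limma adjusted p = 0.017), and neither had a TCP array near its MPG signal. The difference between the genes in the size of the rise was not tested.

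PIPK11 (AT1G01460) encodes a phosphatidylinositol phosphate kinase, one of the enzymes that make the membrane lipid PI(4,5)P2 used in tip growth. It had 2.1 and 6.8 in UNM, 15.4 and 28.3 in BCP, 778.2 and 1285.4 in TCP and 3509.9 in MPG. The TCP arrays lay over 1.5-fold apart, and the rise of 1.81 (SE 0.37) passed (limma adjusted p = 0.036).

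The next 3 protein kinase genes were all higher in MPG than on either TCP array. cdc2cAt (AT5G39420), related to the CDC2 cell cycle kinase, had 4.5 and 1.9 in UNM, 33.5 and 6.2 in BCP, 1101.8 and 1110.6 in TCP and 3485.5 in MPG, a rise of 3.15-fold (limma adjusted p = 0.034). AT5G58950 had 3.9 and 7.2 in UNM, 17.0 and 23.8 in BCP, 680.6 and 950.6 in TCP and 3044.0 in MPG, a rise of 3.78-fold (limma adjusted p = 0.017). AT1G76370 had 11.5 and 1.8 in UNM, 38.9 and 17.9 in BCP, 1614.3 and 1296.6 in TCP and 4607.8 in MPG. Its change of 1.67 (SE 0.42) missed the threshold without the block (limma adjusted p = 0.055) and passed with it at 1.46 (adjusted p = 0.0485), although the MPG array was far above both TCP arrays in either case.

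A pair of related genes also met the rule in each of 2 further families. AT2G40990 and AT5G05070 belong to the DHHC S-acyltransferases, which attach fatty acids to membrane proteins. AT2G40990 had 739.9 and 898.9 in TCP and 2637.7 in MPG, and AT5G05070 had 561.6 and 563.6 in TCP and 1133.3 in MPG. Both rose, by 3.23-fold and 2.01-fold (limma adjusted p = 0.030 and 0.031). AT2G24370 and AT4G31230 belong to the kinases that carry a universal stress protein domain. AT2G24370 had 1336.8 and 1316.3 in TCP and 2924.3 in MPG and rose 2.20-fold (limma adjusted p = 0.025), whereas AT4G31230 had 579.8 and 630.1 in TCP and 607.4 in MPG. The latter change was 0.01, which turned to -0.05 without TCP 1, and the difference within each pair was not tested. AT4G03290, an EF-hand gene of the calcium-binding type, had 1128.0 and 731.3 in TCP and 2211.7 in MPG and did not pass.

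Among the other named genes, those that rose included a motor protein gene, a gene given no function here and an annotated pseudogene. AT5G42490, a kinesin-type microtubule motor gene, had 4.6 and 12.8 in UNM, 26.8 and 28.7 in BCP, 575.6 and 551.1 in TCP and 2497.3 in MPG, a rise of 4.43-fold (limma adjusted p = 0.0094). AT4G39610 had 5.8 and 17.1 in UNM, 25.7 and 38.1 in BCP, 838.0 and 826.3 in TCP and 3436.1 in MPG, a rise of 4.13-fold (limma adjusted p = 0.016). For both genes the TCP arrays were nearly equal and MPG stood well above them. AT2G15650, annotated as a pseudogene and read by a probe set that may share probes with related sequences, rose 2.69-fold (limma adjusted p = 0.027), from 734.0 and 527.9 in TCP to 1674.5 in MPG.

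Others were high in both late stages without a rise that passed. PUB15, a U-box gene of the ubiquitin ligase type, had 10.0 and 27.1 in UNM, 36.2 and 32.9 in BCP, 1568.5 and 1704.1 in TCP and 2460.3 in MPG, a change of 0.59 (limma adjusted p = 0.20). AT1G49290 had 28.7 and 21.8 in UNM, 38.8 and 32.3 in BCP, 2049.9 and 1408.5 in TCP and 3675.5 in MPG, a change of 1.11 with an adjusted p of 0.083 (limma), or 0.91 and 0.0432 with the replicate block. SUFE2, a plastid sulfur-transfer activator for iron-sulfur cluster assembly, had 878.5 and 808.9 in TCP and 2191.9 in MPG. Its change of 1.38 had a limma adjusted p of 0.053, or 0.0351 with the block. AT3G52460 and AT3G25290 had adjusted p of 0.079 and 0.066 (limma), or 0.0334 and 0.0484 with the block.

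For 5 of the 67 the MPG array lay below both TCP arrays, and 3 of these carry a gene name. AT5G39870 had 12.4 and 1.8 in UNM, 37.0 and 16.5 in BCP, 1496.9 and 1119.6 in TCP and 552.4 in MPG. Its change of -1.23 (SE 0.41) did not pass without the block (limma adjusted p = 0.11) and passed as a fall with it at -1.45 (adjusted p = 0.0425). AT2G45610 had 923.6 and 840.7 in TCP and 769.7 in MPG, and AT4G17720 had 593.2 and 608.2 in TCP and 560.4 in MPG. These differences, -0.20 and -0.10, did not pass, and that of AT4G17720 turned to 0.02 under scaling from spiked controls. AT5G04390, a C2H2 zinc finger gene on the transcription factor list, did not pass, with 706.6 and 665.8 in TCP and 714.9 in MPG.

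Within the range that the rule allows, deposited signals under 40, the bicellular arrays were mostly the higher of the early ones. Both BCP arrays lay above both UNM arrays for 45 of the 67, below both for 0, and overlapped them for 22. The shares were 17.2% above and 22.7% below over all probe sets, and 12.0% above and 20.0% below over the 9807 that were silent early but not abundant late. The mean UNM signal had a median of 9.8 and the mean BCP signal one of 24.9. The rule bounded every one of these early signals, and both UNM signals of 46 of the 67 lay under the floor of 20, so the difference is given as a description. For the same reason nothing is read from the limma fit between UNM and BCP, which called 0 rises and 0 falls among the 67 (16 at an unadjusted p under 0.05) where 2.03% of all probe sets tested rose and 0.494% fell. GH9C3, with 5.5 and 5.9 in UNM against 34.0 and 34.6 in BCP, and AT2G45610, with 2.7 and 7.5 against 28.1 and 25.6, were among the genes without overlap.

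**Figure D5:**
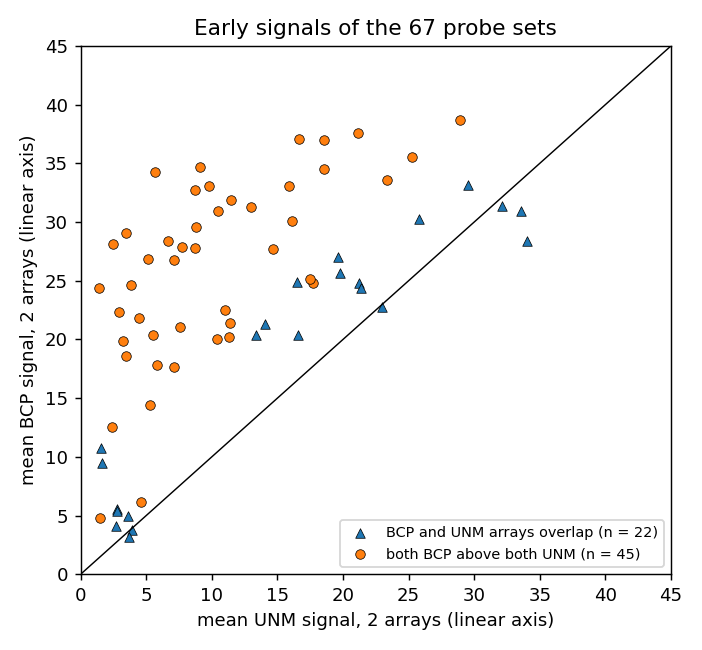
Mean deposited signal on the BCP arrays against that on the UNM arrays (linear axes) for the 67 probe sets, with the line of equal signal. Orange circles are the 45 with both BCP arrays above both UNM arrays and blue triangles the 22 whose arrays overlap.

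The BCP signal was a small fraction of the TCP signal throughout. It was 2.50% of it in the median and ran from 0.423% to 5.64%. As noted for the isolates, the bicellular population also held some tricellular grains. Their share in the study's microscopy counts grains, so it cannot be set against these fractions of signal. The part of those grains in the BCP signal was not tested. Replicates of a stage could differ widely at this level: ANX1 had 20.8 on BCP 1 and 0.7 on BCP 2, and AT3G17060 had 37.9 and 18.3.

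The limit of 40 passes through a continuous range of signals, and its nearest neighbors show how close some genes came. Just inside it, the highest early signal was 39.5 for AT4G17720 and AT1G58120, 39.3 for an unnamed probe set and 39.0 for AT1G44160. Just outside it, the highest was 40.0 for AT1G61860, 40.8 for AT3G19010, 41.1 for AT1G03050 and 41.5 for AT1G67540. At the late limit, the lowest late signal was 510.5 for AT2G28440, 519.4 for AT3G24530, 525.8 for GH9C3 and 527.9 for AT2G15650 inside, and 494.5 for AT5G08240, 492.3 for AT3G04360, 491.1 for an unnamed probe set and 479.0 for AT3G48450 outside.

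By function, only 6 of the 47 named genes fell on the pathway lists, which were matched by locus, symbol and synonym alone. These were ANX1 and ANX2 among 20 measured receptor kinase and peptide ligand genes, GH9C3 among 51 other cell wall genes, PIPK11 among 7 small GTPase, phosphoinositide and traffic genes, AT1G01310 among 25 secreted and allergen-like genes and AT5G04390 among 433 probe sets for transcription factors. None of the 15 measured genes on the pectin enzyme list met the rule, and 10 of them were abundant late. Of all probe sets 0.295% met the rule, and of the abundant late ones 6.17%. The counts per list are small and were not tested against these shares. The lists do not hold every gene of their kind. The pectin methylesterase family genes AT3G17060 and AT5G27870 were not matched to the pectin list, nor PUB15 to the protein turnover list. Between TCP and MPG, where 5.02% of all probe sets tested rose and 7.43% fell, 2 of 13 tested pectin enzyme genes rose and 0 fell, 2 of 10 receptor and ligand genes rose and 0 fell, and 3 of 29 other cell wall genes rose and 1 fell. Among transcription factors 13 of 217 rose and 10 fell. Of the secreted genes 3 of 10 rose and 0 fell, and of the small GTPase and phosphoinositide genes 1 of 6 rose and 3 fell. On the lists without a member, 1 of 24 ion and solute transport genes rose and 4 fell, 1 of 10 actin cytoskeleton genes rose and 2 fell, and 3 of 29 translation factor genes rose and 1 fell. Among 36 protein turnover genes 0 rose and 2 fell, and of 9 lipid and sugar genes and of 5 calcium and kinase genes 0 rose and 1 fell each. The median change of a list ran from -0.77 for the small GTPase and phosphoinositide genes to 0.9 for the receptor and ligand genes, against 0.00 over all tested.

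The 47 named genes were spread over the genome. Chromosomes 1 to 5 held 11, 10, 9, 7 and 10 of the 47, or 23.4%, 21.3%, 19.1%, 14.9% and 21.3%, where all named probe sets divided as 25.5%, 16.3%, 20.3%, 14.5% and 22.3%. No pair of these lay within 3 genes of each other, and the 20 probe sets without a single gene name were not placed. The pair with the fewest genes between them, PUB15 (AT5G42340) and the kinesin gene AT5G42490, were 15 genes and 57748 bases apart, and the closest in bases, AT1G01310 and PIPK11, were 17 genes and 47429 bases apart (TAIR10.1). The median gene length was 1995 bases, against 2117 for all named probe sets and 2120 for the other abundant late ones.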

How the data were processed

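RNA of isolated spores was labeled and hybridized to ATH1 arrays by the authors, who deposited 1 linear intensity per probe set and array. The deposited values already shared a trimmed mean. The study's methods name dChip for its own normalization, and whether these values come from it is not given. After removal of 64 control probe sets, signals were rescaled to 100 as the 2% trimmed mean of each array (largest factor 1.0084). Signals under 20 were raised to 20, log2 values were taken, and the 14364 probe sets that reached 40 on any array were fitted with limma 3.58.1 (R 4.3.3) on stage alone over all 7 arrays, with Benjamini-Hochberg adjustment (residual degrees of freedom 3, prior 2.77). The 67 were chosen on the deposited values. P-values reflect the spread between replicates from separately grown plants, after low signals were raised to 20. For the 67 a median of 2 early arrays were raised in this way, so part of their spread was set by the floor. The lone MPG array was taken to have the same spread as the other stages. The fit was also run on simulated data with an equal spread for every probe set and no replicate effect. These settings differ from the data, so nothing is read from that run about the calls here. The number of arrays limits the precision.

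Deviations of arrays with the same replicate number correlated between stages (0.435, 0.219 and 0.276), and the main fit on stage alone did not use this pairing. The lone MPG array carries number 1, so its change from the mean of TCP 1 and TCP 2 also holds any shared difference between the numbers. A replicate block was fitted as an alternative, and its value is given where it changed a call.

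The members and lists were chosen with earlier results of these data known. Named genes are the 10 named genes with the highest mean late signal, the 6 largest changes each way past the threshold, list and marker genes, the 4 nearest each limit on either side and close paralogs. Other genes, among them those of the wall and signaling groups, were added after their values were seen. Of all probe sets 13513 were listed with 1 gene, 503 with several and 8730 with none. Lists were matched by locus, symbol and synonym, and the transcription factor list also took the loci of the study's supplement. Promoter and protein features were not analysed here. Summaries were computed in Python 3.11.15 with pandas 2.3.3.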

Additional observations from a re-analysis of the deposited data

How the results depend on the processing

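The 35 rises from TCP to MPG became 22 under quantile normalization, 23 with a floor of 10, and 0 under scaling from 9 spiked controls, where only 1 of all probe sets tested rose. Leaving out 1 array gave 0 to 27. In a fit of the TCP and MPG arrays alone, added after the data were seen, there were 0 (39 at an unadjusted p under 0.05). The other settings gave 24 to 47. The 23 and 22 rises were all among the 35. Falls, 0 at first, were 2 with a floor of 40 (AT5G39870 and an unnamed probe set), 1 without a filter on low signals (the same unnamed probe set) and 1 with the replicate block (AT5G39870). The median change of 1.27 was 0.92 under quantile normalization and 1.25 to 1.39 otherwise. With the replicate block 40 rose, 34 of them among the 35, and the median was 1.25. The block changed no call beyond the 8 given beside their genes, and no UNM to BCP call. Nothing is read from UNM to BCP calls, since the rule bounds those signals; rises, 0 at first, were 8 with a floor of 10, 6 on log2 of the signal plus 20, 3 without a filter and 2 with a filter of 80. The rule found 11 probe sets with an early limit of 20, 201 with 80, 130 with a late limit of 250 and 20 with 1000. It found 67 to 90 without 1 array. Quantile normalization gave shares of 1.67% of TCP and 3.24% of MPG signal, in place of 1.77% and 3.92%. Small changes turned sign for AT4G33390 (-0.18, quantile), for AT3G26880 (0.045), TBL20 (0.021) and AT4G17720 (0.015) with spiked controls, and for AT3G26880 (0.005) with the replicate block. Over left-out arrays TBL20 ran from -0.32 to 0.13, AT4G31230 from -0.054 to 0.067 and AT3G26880 from -0.31 to 0.17. Where a value changed, the cause was not tested. The promoter motif counts were not run. Raising signals under 20 to 20 removes their order from the fits.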
